A study of Drosophila melanogaster with 20 samples.

Results

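Pyrethrin alone was compared with an ethanol spray on 4 of the 20 arrays of the series, which were chosen as all arrays whose source name gave pyrethrin without pepper extract. The flies were adult females of the Oregon-R strain of Drosophila melanogaster, 4 to 10 days old, raised under 16 h of light and 8 h of dark at 60% humidity. They received 2 mL of pyrethrin at 0.04 mg/mL in 99% ethanol as a spray in a Potter's tower, and the controls received 2 mL of 99% ethanol, so that every group shared the solvent. RNA of whole bodies was collected 6 h later from pools of about 240 flies, and 80 µg of total RNA per extract were labelled with Cy3 or Cy5 and hybridised to spotted cDNA arrays of 16896 spots. The other arrays, 8 for black pepper seed extract (Pn, 0.2 mg/mL) and 8 for pepper extract at 0.1 mg/mL with pyrethrin at 0.004 mg/mL (PyPn), served here to measure the dye effect and as a comparison.

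Pyrethrins are insecticidal esters from chrysanthemum flowers that hold voltage-gated sodium channels of nerve cells open, so that nerves fire repeatedly and the insect is knocked down. In Drosophila the channel is encoded by para, and auxiliary subunits of the TipE family shape its current. Insects break pyrethrins down mainly with esterases and cytochrome P450 enzymes, whose genes are often induced by foreign compounds. In pooled whole flies, fewer cells of a type and less RNA per cell cannot be told apart.

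The 4 pyrethrin arrays, called replicates 1, 2, 4 and 5 after the source names, held 4 treated extracts but 2 control extracts: replicates 1 and 2 shared control extract 3, and replicates 4 and 5 shared control extract 4. Treated RNA was in Cy3 on all 4, so a gene that labels better with 1 dye could not be told from a treated gene on these arrays alone. The 8 pairs of Pn and PyPn arrays with exchanged dyes gave the dye effect of each feature, with 4 to 8 pairs measured per tested feature. The dye effect is how far the Cy5 orientation lies from the mean of both orientations. A corrected value is the deposited log2 ratio with that effect removed. Values are log2 ratios, with each array's median set to 0. They are read as treated over control, a direction that is assumed and not stated in the labels. Control over treated would reverse every direction given here. Read by channel instead, 25 of 25 named genes tried turned sign, but that reading reverses the deposited ratio of all 4 pyrethrin arrays by construction. The files hold ratios without intensities, so the markers of the labelled tissue and sex could be read as differences only and not as levels.

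The arrays had 16294 to 16818 measured spots each, and 12847 features entered the test, of which 2364 were genes with a single symbol. Replicate 2 stood apart in its dye effect. Its ratios followed the dye effect with a slope of 1.32 (r = 0.627 across features), whereas replicates 1, 4 and 5 had slopes of 0.394, 0.424 and 0.502 (r = 0.255, 0.231 and 0.315). As deposited all pairs of arrays correlated at 0.141 to 0.236 across features, those with replicate 2 included. After the same dye effect had been removed from every array, which leaves a remainder where the slope is not 1, the ratios of replicates 1, 4 and 5 correlated with each other at 0.193 to 0.262, and those of replicate 2 correlated with the other three at -0.0145 to 0.0316. The arrays also differed in precision, with neighbouring duplicate spots that correlated at 0.311, 0.688, 0.190 and 0.409 in replicates 1, 2, 4 and 5. These correlations are across features, which are not independent, and are given as a description.

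**Figure D1:**
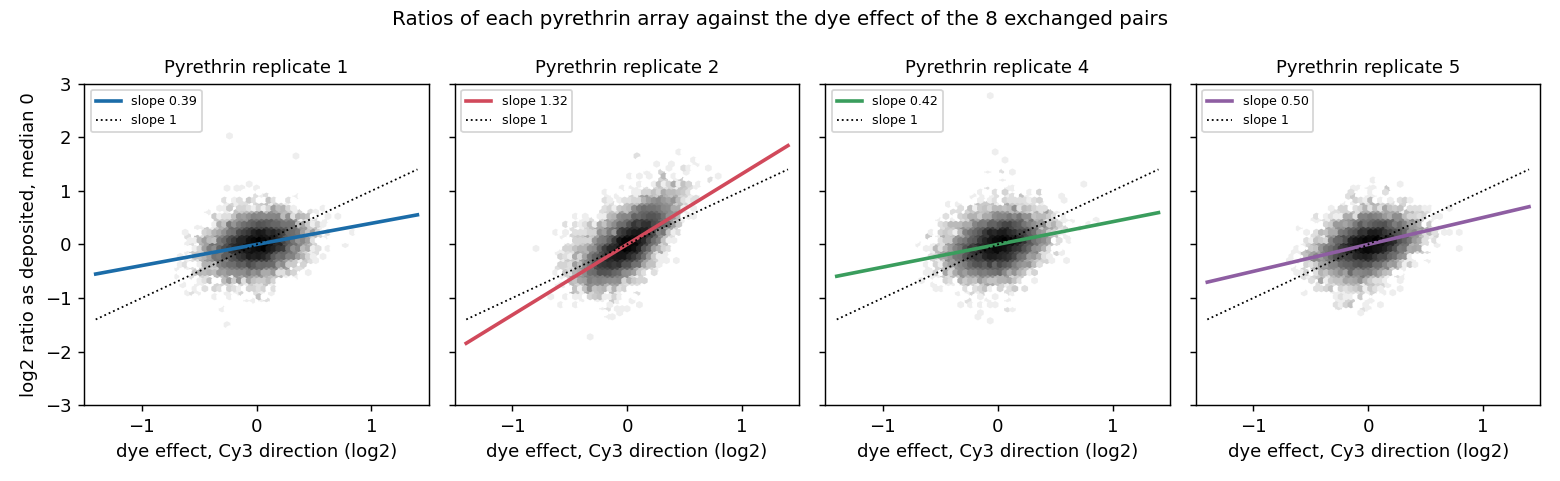
Log2 ratio as deposited (y axis, array median 0) against the dye effect in the Cy3 direction (x axis, log2) for every tested feature on each of the 4 pyrethrin arrays; darker cells hold more features, the coloured line is the fitted slope and the dotted line a slope of 1. Replicate 2 has a slope of 1.32 and the other 3 arrays have slopes of 0.394 to 0.502.

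ocn (ocnus), a gene of the janus family that is expressed in the testis, rose after pyrethrin. Its ratio as deposited was 1.02, 0.78, 0.62 and 0.79 in replicates 1, 2, 4 and 5, and the corrected values were 1.26, 1.03, 0.87 and 1.04. All 4 arrays were well above 0 and replicate 1 was the highest, and the values of the 2 spots of the gene were close on every array, at 1.11 and 0.92 in replicate 1 and at 0.68 and 0.57 in replicate 4. The fitted log2 value was 1.05 ± 0.129 (SE, n = 4), a 2.07-fold difference with a limma adjusted p of 0.00254. Its dye effect ran against the treatment (0.25, limma adjusted p = 0.00989), so the value as deposited was lower, at 0.80 ± 0.114 (SE, n = 4), and passed as well (limma adjusted p = 0.00797). ocn no longer passed when both arrays of 1 control extract were left out, with 0.95 (limma adjusted p = 0.0937) without control extract 3 and 1.15 (limma adjusted p = 0.154) without control extract 4. It also missed the threshold when all 20 arrays were fitted together (limma adjusted p = 0.149) and when the dye effect was taken as exact (limma adjusted p = 0.0643), a fit in which dsx passed (limma adjusted p = 0.0322).

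Among all features, 5 passed an adjusted p of 0.05 after the dye correction, all above the control and none below, which is 0.0389% of those tested. At an unadjusted limma p under 0.05 there were 727 features, 5.66% of those tested, 397 above (3.09%) and 330 below the control (2.57%). ocn was the only one of the 5 with a gene symbol, 0.0423% of the genes with a symbol. The other 4 were unnamed spots in 2 neighbouring pairs, and because every annotated pair of neighbours on the array shared its symbol, they stand for 2 further cDNAs; they were picked out after the results were known. The pair ID12945 and ID12946 rose by 1.10 ± 0.117 and 1.07 ± 0.108 (SE, n = 4 each; limma adjusted p = 0.00081 for both). On ID12946 the corrected values were 1.24, 1.07, 0.95 and 1.03 in replicates 1, 2, 4 and 5, with replicate 1 again the highest and replicate 4 the lowest. The pair ID5469 and ID5470 rose by 1.17 ± 0.139 and 1.10 ± 0.161 (SE, n = 4 each; limma adjusted p = 0.00226 and 0.0161). On ID5469 the values spread more, at 1.30, 1.46, 0.76 and 1.16, and both arrays of control extract 3 were higher than both arrays of control extract 4. All 5 features passed as deposited too. None of them passed without both arrays of control extract 3 or of control extract 4.

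Of the 2364 genes with a symbol, 101 had an unadjusted limma p under 0.05 (4.27%), 54 of them above the control (2.28%) and 47 below (1.99%). The 12 with the smallest p-values in each direction are described next, and apart from ocn none passed, with limma adjusted p-values of 0.467 to 0.850. All 24 had 1 sign in every array, which 20.1% of all features did, 10.3% above 0 and 9.86% below.

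dsx (doublesex), the transcription factor at the end of the sex-determination cascade, had a corrected ratio of 0.70, 0.94, 0.76 and 0.36 in replicates 1, 2, 4 and 5. Every array was above 0, with replicate 5 the lowest. The fitted value was 0.69 ± 0.229 (SE, n = 4; limma adjusted p = 0.79). As deposited, dsx had the largest value of the genes that passed, 1.22 ± 0.202 (SE, n = 4; limma adjusted p = 0.0186), with 1.23, 1.46, 1.28 and 0.89 on the arrays. Its dye effect was -0.53 and was not alike in the 2 sets of exchanged arrays. The treated-in-Cy3 arrays of Pn stood at 0.86, 0.87, 0.68 and 0.75 and those of PyPn at 0.12, 0.31, -0.03 and 0.03. The Pn arrays were thus all high in Cy3 and all low in Cy5, at -1.12 to -0.57, and the PyPn arrays lay nearer to 0, at -0.59 to 0.00 in Cy5. With the dye effect of the Pn pairs alone the corrected value of dsx was 0.36, and with that of the PyPn pairs alone it was 1.02. Of the other measured sex-determination genes, fru, which specifies male courtship circuits, was at -0.05 and Sxl, the switch gene at the head of the cascade, at -0.01. The gene tra, which directs female splicing of dsx, was at 0.29 corrected but at -0.05 as deposited, with a dye effect of 0.34.

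Vps51, a subunit of the complexes that tether vesicles to the Golgi and recycling endosomes, had the smallest p-value after ocn. Its corrected ratio was 0.48, 0.48, 0.39 and 0.59 in replicates 1, 2, 4 and 5, a narrow range on both control extracts. The fitted value was 0.49 ± 0.124 (SE, n = 4; limma adjusted p = 0.467), and the dye effect was 0.08 (limma adjusted p = 0.333). Cyp12d1-p, a mitochondrial cytochrome P450 that responds to foreign compounds, stood at 0.36, 0.55, 0.27 and 0.36. Every array was above 0 and replicate 2 was the highest. The fitted value was 0.39 ± 0.130 (SE, n = 4; limma adjusted p = 0.79), against 0.61 ± 0.115 as deposited (limma adjusted p = 0.0293). A neighbouring copy of this gene is nearly identical, and a spotted cDNA does not separate the pair.

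The other 8 genes above the control did not pass. HnRNP-K, an RNA-binding protein, stood at 0.55 ± 0.169 (SE, n = 4), Pk34A, a protein kinase, at 0.52 ± 0.140 (0.19 as deposited), and Torsin, an ATPase of the endoplasmic reticulum and nuclear envelope, at 0.41 ± 0.140. For HnRNP-K the dye effect came from 4 pairs, all of PyPn. ens (ensconsin), a microtubule-associated partner of kinesin, stood at 0.40 ± 0.139, with 0.05 in replicate 2 and 0.38 to 0.68 in the others. l(1)G0469 stood at 0.40 ± 0.120 and CG10752, with 5 measured pairs, at 0.36 ± 0.121. For 2 genes a single array, replicate 4, raised the value. cher (cheerio), the filamin that crosslinks actin, was at 0.66 ± 0.186 (SE, n = 4), with 1.29 in replicate 4 and 0.32 to 0.67 in the others, and was 0.46 without replicate 4. The 2 spots of cher differed, at 0.60 and 1.57 in replicate 4 and -0.13 and 1.05 in replicate 5 as deposited. Its dye effect came from 5 pairs. CG8321 was at 0.56 ± 0.173, with 1.31 in replicate 4, where its 2 spots read 2.76 and -0.05 as deposited, and was 0.31 without that array.

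The 12 genes below the control lay between -0.46 and -0.29, so their differences were smaller than that of ocn, and none passed. Gpdh3, related to the glycerol-3-phosphate dehydrogenases, stood at -0.25, -0.48, -0.47 and -0.66 in replicates 1, 2, 4 and 5, with a fitted value of -0.46 ± 0.146 (SE, n = 4; limma adjusted p = 0.737). Glys, the glycogen synthase, was at -0.32 ± 0.110, with -0.06 in replicate 2 and -0.47 to -0.32 in the others, and stood at -0.096 as deposited. beta-PheRS, a subunit of phenylalanyl-tRNA synthetase, was at -0.44 ± 0.136, again with replicate 2 near 0, at -0.07, and the others between -0.58 and -0.55, and stood at -0.11 as deposited. For both genes most of the value came from the dye correction. orb2, an RNA-binding protein of the CPEB family that long-term memory requires, was at -0.38 ± 0.123, with -0.07 in replicate 5.

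fog (folded gastrulation), a secreted signal that folds epithelia in the embryo, had the smallest p-value below the control. Its corrected ratio was -0.30, -0.49, -0.36 and -0.35 in replicates 1, 2, 4 and 5, and replicate 2 was the lowest. The fitted value was -0.38 ± 0.107 (SE, n = 4; limma adjusted p = 0.682). As deposited fog stood at -0.44 ± 0.0943 and passed (limma adjusted p = 0.0452), and its dye effect was 0.06 (limma adjusted p = 0.379). yps, a Y-box protein that packages maternal RNA in the ovary, had almost the same value on every array, from -0.38 to -0.34, and a fitted value of -0.35 ± 0.126. GCS2alpha, the catalytic subunit of glucosidase II in glycoprotein folding, was at -0.40 ± 0.136, and Bsg (basigin), a membrane glycoprotein of the immunoglobulin family, at -0.29 ± 0.0994. The 6 spots of Bsg were not alike. A neighbouring pair of them read -0.07 to 0.095 as deposited over the arrays, and the rest read -0.74 to -0.28. The remaining 4 were CG12860 at -0.42, Ktl at -0.37, CG4294 at -0.33 and CG18135 at -0.32 (-0.16 as deposited).

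**Figure D2:**
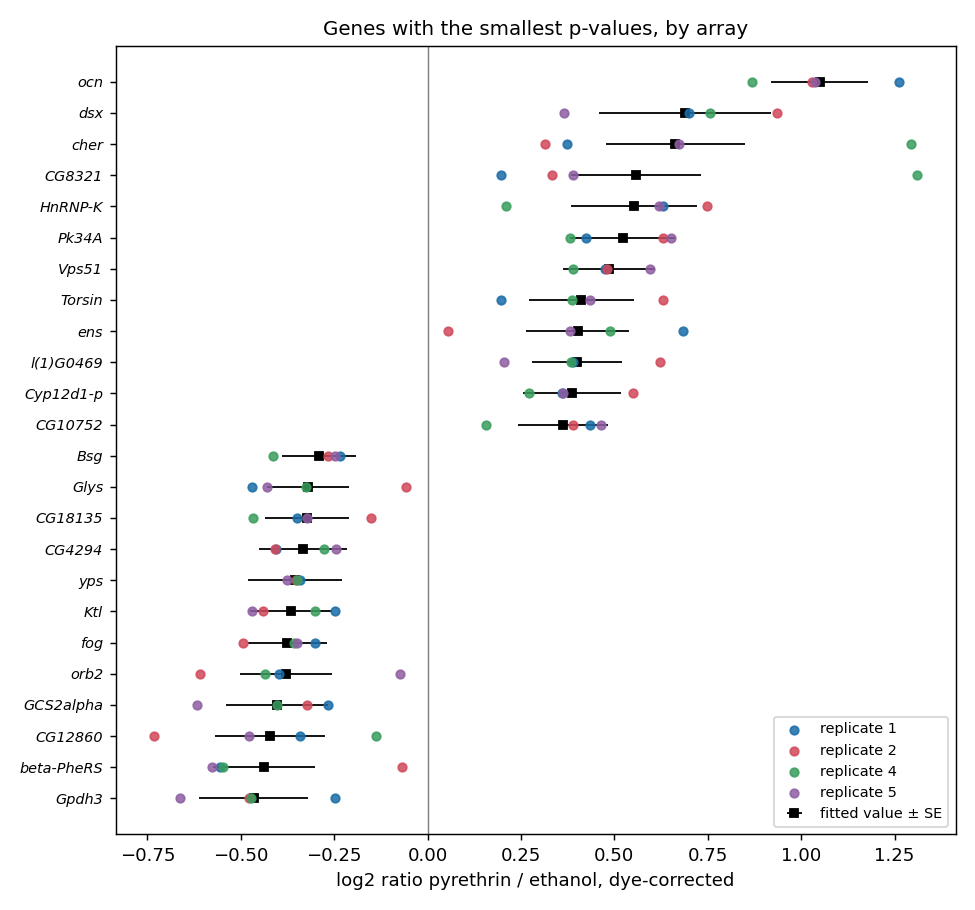
Dye-corrected log2 ratio of pyrethrin over ethanol (x axis) for the 12 genes with the smallest p-values on each side of 0 (y axis); coloured points are the 4 arrays, black squares the fitted values and bars their SE. ocn lies apart from the others at 1.05, and replicate 4 carries the highest points of cher and CG8321.

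Before the dye correction 109 features passed (0.848% of those tested), 66 above (0.514%) and 43 below the control (0.335%). Of the genes with a symbol 17 passed (0.719%), 10 above (0.423%) and 7 below (0.296%). The dye effect itself passed in 3127 features (24.3%). Of the 109 features, 80 had a dye effect that passed and pointed the same way (0.623% of all features), and 100 moved closer to 0 with the correction. Of the 17 genes, 15 had such a dye effect and 16 moved closer to 0, with ocn as the exception. These features and genes were picked by their values as deposited, which favours a move towards 0. The share over all features that moved closer to 0 was not counted. alphaTub85E, an alpha-tubulin, was 1.09, 1.19, 0.85 and 1.48 as deposited, high on every array. It went from 1.15 ± 0.235 (limma adjusted p = 0.0375) to 0.42 after correction. The correction removed the full dye effect from each array, whereas replicates 1, 4 and 5 followed it with slopes of 0.394 to 0.502. A remainder is thus left in the corrected values of these genes. Spn27A, a serpin that restrains the Toll pathway, read 0.40, 1.48, 0.79 and 0.59 as deposited, with replicate 2 far above the others, and went from 0.81 ± 0.151 (limma adjusted p = 0.0293) to 0.44. CG6621 went from 0.62 to 0.16.

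Hsc70-2, a constitutive Hsp70-type chaperone, showed the widest change among the 17 genes. As deposited it was 0.32, 1.73, 1.34 and 1.01 in replicates 1, 2, 4 and 5, with a fitted value of 1.10 ± 0.238 (SE, n = 4; limma adjusted p = 0.0456). Its dye effect was -1.02, and the corrected value was 0.08. The full dye effect was removed here too, although replicates 1, 4 and 5 had slopes of 0.394 to 0.502. The part of the dye effect in the deposited ratio of Hsc70-2 was not tested. Pdcd4, an inhibitor of translation, went from -0.64 to -0.29, CG32267 from -0.63 to -0.08 and CG7408 from -0.55 to -0.10. fog and orb2 kept more of their values; orb2 was at -0.55 ± 0.109 as deposited (limma adjusted p = 0.0315) and -0.38 corrected. TpnC41C, a troponin C of flight muscle, had the largest dye effect of all genes, 1.29, and its value turned from -0.83 as deposited to 0.47 corrected. That turn rests on removing the full dye effect from every array, whereas the slopes on it ran from 0.394 to 1.32. The size of the dye effect of TpnC41C on the pyrethrin arrays themselves was not tested. The dye effects of CG4461 and CG7332 were 0.76 and 0.70, and those of CG16782 and Hsc70-1 were -0.91 and -0.84.

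**Figure D3:**
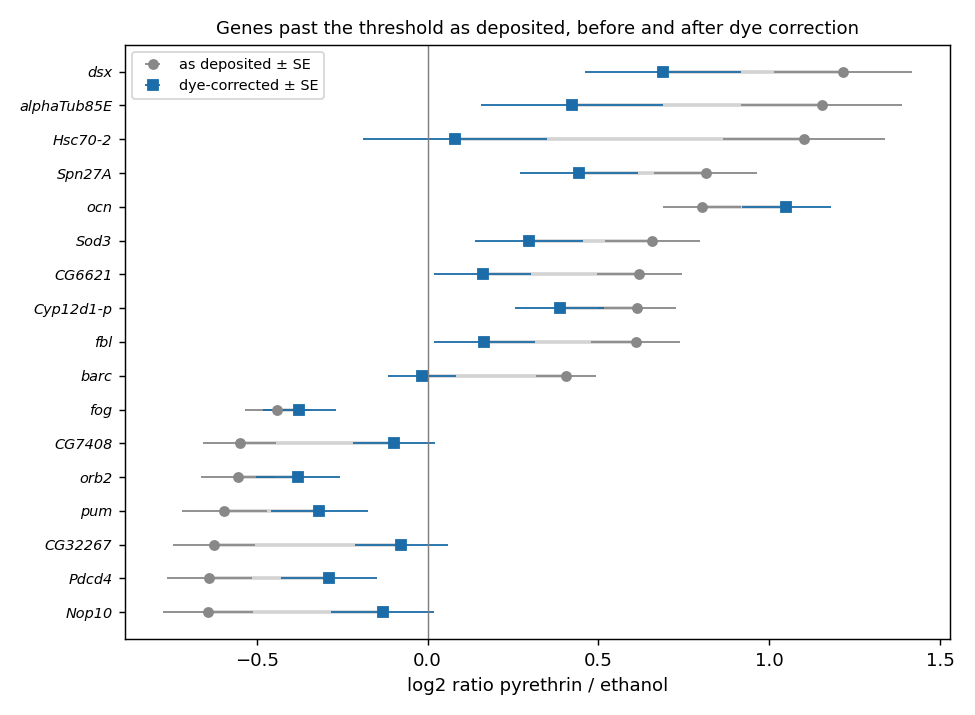
Fitted log2 ratio of pyrethrin over ethanol (x axis) for the 17 genes with a symbol that passed as deposited (y axis); grey circles are values as deposited, blue squares are dye-corrected values and bars are SE. Of the 17 genes, which were picked by their values as deposited, 16 move towards 0 with the correction and ocn moves from 0.80 to 1.05.

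Genes of nerve excitation, where pyrethrins act, did not pass in any case. None of the 14 measured voltage-gated channel genes and partners had an unadjusted p under 0.05, 7 were above and 7 below the control, and their median was -0.0048, against -0.0012 over all genes with a symbol. As deposited 8 of the 14 were above the control, with a median of 0.04. Shal, a potassium channel of the A-type current, was at 0.77, 0.35, 0.22 and 0.29 in replicates 1, 2, 4 and 5, highest in replicate 1, with a fitted value of 0.40 ± 0.202 (SE, n = 4; limma adjusted p = 0.867). The dye effect of Shal came from 5 pairs. Teh1, an auxiliary subunit related to tipE, was at 0.06, -1.66, 0.40 and 0.14. Replicate 2 alone was low, on both of its spots (-1.70 and -1.74 as deposited), and the fitted value of -0.27 turned to 0.19 without that array. NaCP60E, a relative of the sodium channel, was at -0.02, the calcium channel gene cac at 0.05 and the potassium channel genes Sh and Shab at -0.06 and -0.03. para and tipE were not analysed here. Of 12 genes of synaptic transmission and transmitter receptors, 8 were above and 4 below the control (median 0.04), and Spn (spinophilin) was the highest, at 0.49 ± 0.361 (SE, n = 4).

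Few spots carried the symbol of a detoxification gene. Of 4 measured P450 genes, 2 were above the control and 1, Cyp12d1-p, had an unadjusted p under 0.05; as deposited all 4 were above it, with a median of 0.18. Cyp4ac1 stood at 0.09, Cyp4g15 at -0.11, and Cyp6u1 at -0.18. The 3 glutathione S-transferases stood at 0.05 (GstE13), 0.04 (GstE2) and -0.27 (GstZ2), and none of them was above the control as deposited. Of 7 UDP-glucuronosyltransferases 5 were above the control, Ugt50B3 highest at 0.27, and the median was 0.04 (3 of 7 and -0.04 as deposited). None of these families had another member at an unadjusted p under 0.05, and esterases and ABC transporters had no measured member.

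Stress genes read differently before and after the correction. The array held 16 heat shock protein and chaperone genes, of which 13 were above the control as deposited, and 8 above and 8 below it after correction, with a median of -0.0056, and none had an unadjusted p under 0.05. Hsp68, a stress-induced Hsp70, was at 0.04, 1.47, 0.42 and 0.16 in replicates 1, 2, 4 and 5. Replicate 2 was far above the rest, and the fitted value was 0.52 ± 0.331 (SE, n = 4) against 1.26 as deposited. Of 11 genes of oxidative stress and damage signalling, 3 were above and 8 below the control, with a median of -0.02 and Keap1, the brake on the antioxidant response, at -0.22; as deposited 6 of the 11 were above it. Of the 4 measured immune genes 2 were above the control, with a median of 0.013. Dif, a transcription factor of the Toll pathway, ranged from -0.18 to 0.87 between arrays, with a fitted value of 0.32, and Pxn stood at 0.08, NimC1 at -0.05 and TotF at -0.14.

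Male and female reproductive genes were read because the flies were labelled female. Of 9 testis and accessory gland genes 5 were above and 4 below the control, with a median of 0.06, and 1 of the 9, ocn, rose; as deposited 4 of the 9 were above it, with a median of -0.05. Acp36DE, a seminal fluid protein, was at 1.33, -0.13, 0.21 and -0.01 in replicates 1, 2, 4 and 5, high in replicate 1 alone, with a fitted value of 0.35 ± 0.259 (SE, n = 4). dj, a sperm tail gene, stood at 0.15, betaTub85D, the tubulin of the sperm axoneme, at 0.16, and Mst84B at -0.06. Testis-specific relatives of the proteasome were at -0.01 (Prosalpha4T1) and -0.31 (Prosalpha4T2). The part of male RNA in the ocn result was not tested. The 7 ovary and maternal genes lay between -0.06 and 0.15, with 4 above the control and a median of 0.04 (3 above and -0.07 as deposited).

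In the remaining lists no gene passed, and the direction of several depended on the dye correction. Vesicle tethering and trafficking had 18 of 27 genes above the control, with a median of 0.06 (15 of 27 and 0.03 as deposited); 49.7% of all genes with a symbol were above it. Its Exo84, of the exocyst, was at 0.34 ± 0.143 over 3 measured arrays. Oxidative phosphorylation had 8 of 10 genes above it (median 0.03), but 3 of 10 as deposited (median -0.20). Of 14 proteasome genes 6 were above it, with a median of -0.02 (7 and 0.0084 as deposited), and Rpn6, a lid subunit, was at -0.33 ± 0.123 (SE, n = 4). Gpdh3 was the 1 of 5 glycolysis, trehalose and glycerol phosphate genes below the control, and the list had a median of 0.05 (0.18 as deposited). The 6 cytosolic ribosomal protein genes had a median of 0.10, and 5 of them were above the control (-0.02 and 3 as deposited).

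Idgf3, a chitinase-like growth factor of the fat body, had close values of 0.42, 0.44, 0.49 and 0.39 in replicates 1, 2, 4 and 5, all above 0, and a fitted value of 0.43 ± 0.177 (SE, n = 4; limma adjusted p = 0.863). Its Pn arrays had means of 0.25 in Cy3 and -0.23 in Cy5, and its PyPn arrays of -0.35 and 0.17. The dye effects of the 2 sets were thus opposite in sign and cancelled in their mean, so the corrected value of Idgf3 depends on the set used. In the same list apolpp, the main lipoprotein of the hemolymph, ranged from -1.08 to 0.53 between arrays. Of the 7 fat body genes 2 were above the control, with a median of -0.07, whereas as deposited 5 of 7 were above it, with a median of 0.18. Of 21 odorant-binding proteins 13 were above the control, with a median of 0.05, whereas as deposited 5 of 21 were, with a median of -0.097. Both ends of the range came from the correction: Obp8a was at -0.72 ± 0.726 (SE, n = 4) corrected and -0.10 as deposited, and Obp19a, with 4 measured pairs, all of PyPn, at 0.30 corrected and -0.0098 as deposited. Of 5 phototransduction genes 1 was above it, with a median of -0.15 (0 of 5 and -0.13 as deposited), and rdgB, a phosphatidylinositol transfer protein of photoreceptors, was at -1.14 in replicate 4. The muscle proteins (7 of 11 above, median 0.02), clock genes (3 of 6, median 0.02) and cuticle and chitin genes (5 of 14, median -0.0084) centred near 0. As deposited these were 6 of 11 (0.0030), 2 of 6 (-0.03) and 9 of 14 (0.04).

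**Figure D4:**
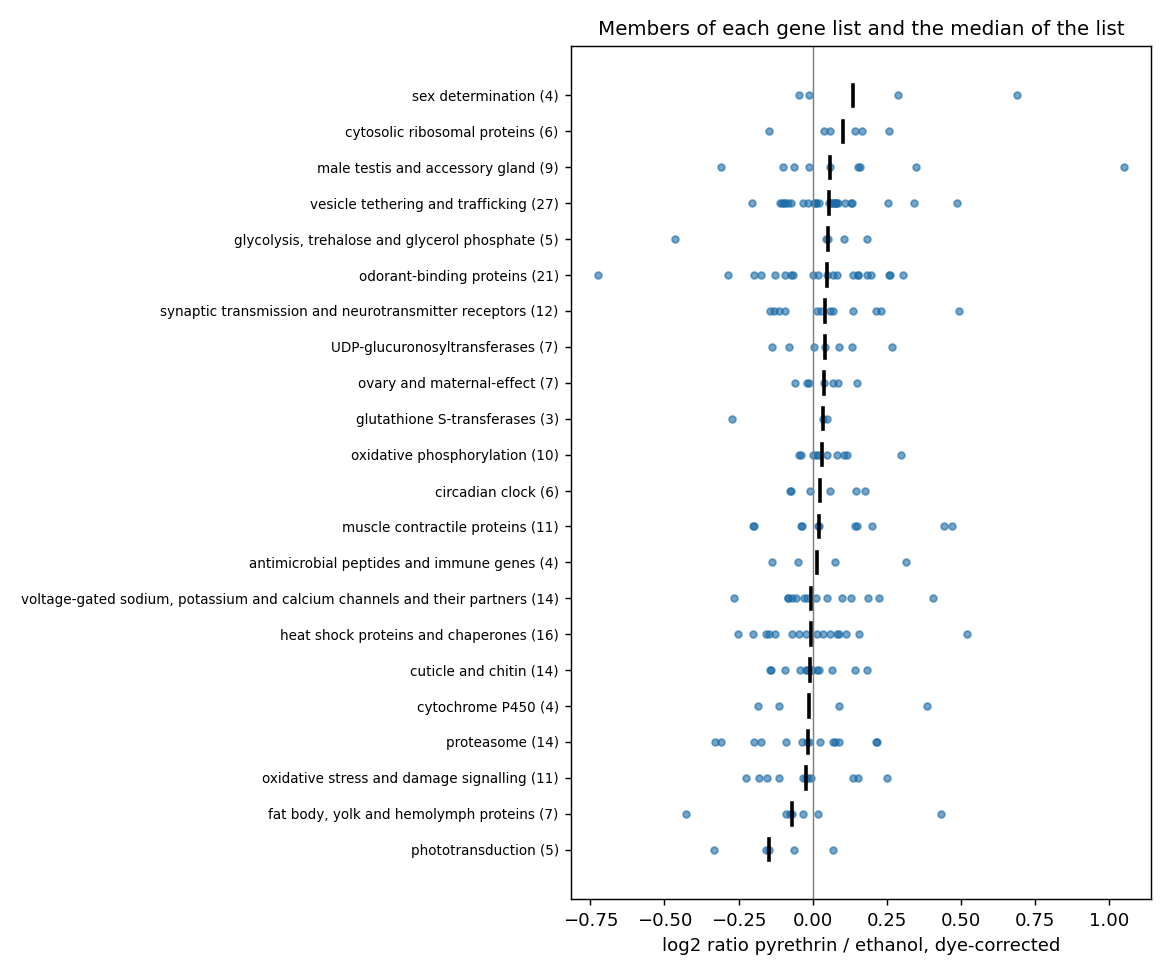
Dye-corrected log2 ratio of pyrethrin over ethanol (x axis) of each measured member (points) of the 22 gene lists with at least 3 measured members (y axis, number of members in brackets); black ticks are list medians. ocn, at 1.05 in the testis list, is the 1 member that passed, and the list medians lie between -0.15 and 0.14.

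Pyrethrin was last set beside the other treatments on the 12 arrays with treated RNA in Cy3. The dye orientation was the same on all 12, but the size of the dye effect was not, since the slopes of the pyrethrin arrays differed and the dye effects of the Pn and PyPn pairs correlated at 0.449 across features, so the difference is not free of dye. The pyrethrin dose differed from that in PyPn, so the difference is between sprays and not between doses of 1 compound. By the source names, control extracts 3 and 4 also served on Pn and PyPn arrays. The fit had no block for control extract, so arrays of different sprays were not fully independent. Of 12846 features 0 passed in limma, and 646 had an unadjusted p under 0.05 (5.03%). Among genes with a symbol the smallest p-values belonged to dsx, at a difference of 0.77 ± 0.143 (SE), Vps51 at 0.60 ± 0.143, CG16772 at 0.68 ± 0.167, ocn at 0.91 ± 0.238 and Cyp1, a cyclophilin, at 0.50 ± 0.141, all with a limma adjusted p of 0.885. Before the dye was considered ocn stood at 0.62 to 1.02 on the pyrethrin arrays, at -0.66 to 0.30 on the Pn arrays and at -0.89 to 0.26 on the PyPn arrays, so that the groups did not overlap. Every pyrethrin array lay above every other Cy3 array in 0.296% of features, and ocn, dsx and Vps51 were picked by their p-values in the same contrast. With treated RNA in Cy5, ocn was at 0.71 and 1.20 on 2 of the PyPn arrays, within and above the pyrethrin range. Vps51 was at 0.31 to 0.51 on the pyrethrin arrays and at -0.46 to 0.04 on the other Cy3 arrays. For dsx these ranges were 0.89 to 1.46 and -0.03 to 0.87. CG16772 stood at 0.69 after pyrethrin, 0.03 after Pn and -0.01 after PyPn as means of the Cy3 arrays. Its Cy5 means were -0.65 for Pn and 0.67 for PyPn, so that the dye effects of the 2 sets were opposite in sign and cancelled in their mean. Cyp12d1-p had means of 0.61 after pyrethrin, 0.66 after Pn and 0.67 after PyPn. Its arrays overlapped, at 0.50 to 0.77, 0.37 to 0.95 and 0.29 to 0.92.

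**Figure D5:**
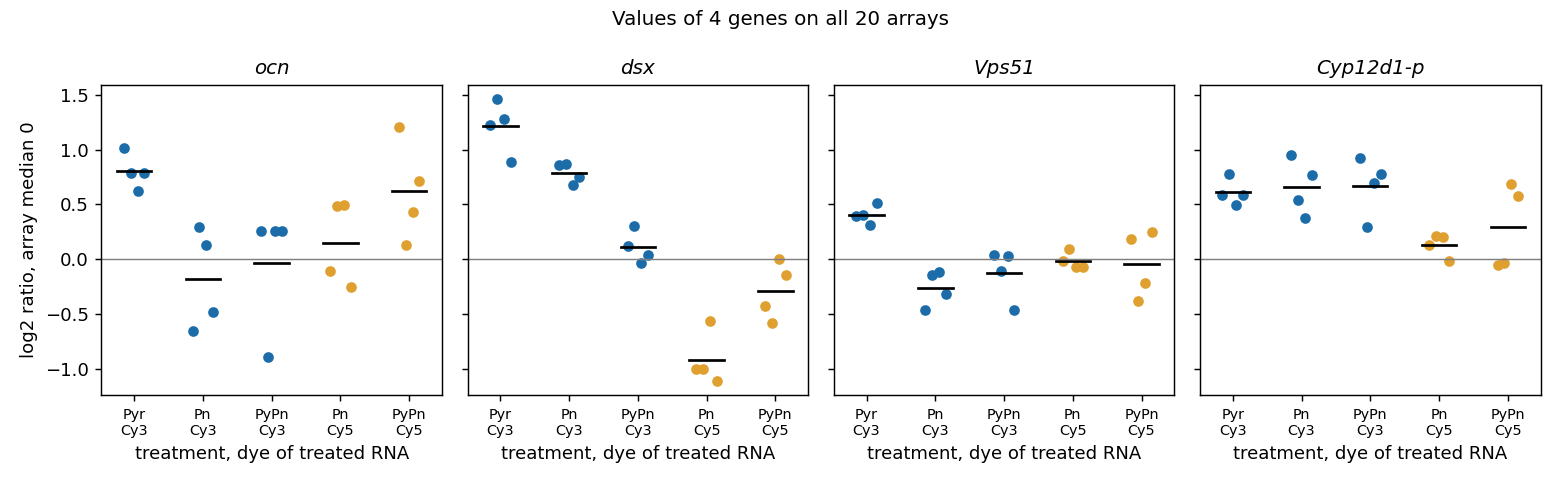
Log2 ratio with the array median at 0 (y axis) of ocn, dsx, Vps51 and Cyp12d1-p on all 20 arrays, by treatment and by the dye of the treated RNA (x axis; blue Cy3, orange Cy5); points are arrays and bars are means. The pyrethrin values of ocn (0.62 to 1.02), Vps51 (0.31 to 0.51) and dsx (0.89 to 1.46) lie above those of all other Cy3 arrays. dsx is also high in Pn with Cy3 (0.68 to 0.87), and Cyp12d1-p overlaps.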

How the data were processed

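The values were the authors' deposited log2 ratios, 1 per spot and array; the base was inferred from their range, and how they were normalized, and which channel is the numerator, is not stated in the labels or file headers. In the 8 dye-exchanged pairs, residuals of the 2 arrays of a unit correlated at 0.0246 to 0.439, positive in 8 of 8. The mean was 0.196 for these partners and -0.0648 for arrays that were not partners. Some arrays that were not partners correlated above the lower partners, at up to 0.190. The unadjusted correlation was negative in 6 of the 8 pairs. Positive residual correlations go with the same numerator in both dye orientations. Control over treated would give them too, so the pairs cannot tell it from treated over control. Treated over control is therefore assumed. Each array was centred on its median and spots of 1 symbol were averaged (5666 spots, 2377 symbols, all matched to RefSeq by gene identifier; 152 spots carried several symbols and 11078 none). Features in at least 3 pyrethrin arrays and 4 pairs were tested. limma 3.58.1 in R 4.3.3 (statmod 1.5.0) fitted up to 12 values per feature, at most 4 pyrethrin ratios and 8 dye effects. The error of the dye effect thus enters the corrected test. The fit had weights by kind of array (0.723 and 1.18), a random block for the shared control extract (correlation 0.0964) and Benjamini-Hochberg adjustment. Tests were two-sided and were tried on simulated data. Every simulated pyrethrin array carried the dye effect with a slope of 1, whereas the real slopes ran from 0.394 to 1.32. The simulation therefore does not cover that mismatch. The number of arrays limits the precision: the median SE of a corrected log2 value was 0.156. Nothing in the labels says how far the extracts are separate cultures. The error of each test pools the spread of the 4 pyrethrin ratios with that of the 8 dye effects. Both arrays of a dye-exchanged pair used the same extracts, so p-values do not measure the spread between extracts alone. An SE with n = 4 counts the pyrethrin arrays but comes from this pooled error. For yps the SD of the 4 corrected values was 0.014, against an SE of 0.126. With 4 arrays alone an exact sign-flip test could not go below 0.125.

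Genes named are the 12 smallest p-values on each side, the 10 smallest as deposited, the 3 largest dye effects each way, the 5 smallest in the difference, and up to 4 per list. The members and lists were chosen with earlier results of these data known, and the pattern for immune genes was narrowed after it had matched unrelated names. The sterol and hormone list had 2 measured genes, br at -0.07 and ftz-f1 at 0.05, and is not summarised. The alternatives tried were other filters, weights, blocks, dye pairs, array sets and the by-channel reading.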

Additional observations from a re-analysis of the deposited data

Results flagged for a closer look

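In 12 of 119 named genes with 4 values, 1 array lay far from the others. About 1 in 20 sets of independent values would be flagged by chance. These genes were chosen from the same arrays and are not independent, so that rate does not apply to them directly. Of the 12, 8 concerned replicate 2. That array also stood apart in its slope on the dye effect, 1.317 against 0.394 to 0.502. The sodium channel partner Teh1 was at -1.66 in replicate 2 and at 0.06 to 0.40 in the others, and Treh, which splits trehalose, at 0.697 against -0.23 to -0.08. beta-PheRS was at -0.0678 against -0.58 to -0.55, and Cyp1 at -0.0245 against 0.44 to 0.46. Sec61beta, of the protein channel of the endoplasmic reticulum, was at -0.171 against 0.34 to 0.43, and GstE13 at -0.335 against 0.14 to 0.22. The meiotic gene c(3)G was at -0.147 against 0.15 to 0.17, and Ugt37E1 at -0.0829 against -0.16 to -0.15. In replicate 1 the serotonin receptor 5-HT7 was at 0.489 against 0.13 to 0.16 and the testis thioredoxin TrxT at 0.614 against 0.10 to 0.15. ATPsynGL was at 0.508 in replicate 4 against -0.03 to 0.02, and Obp59a at 0.449 in replicate 5 against 0.18 to 0.22. The part of the dye effect in the values of replicate 2 was not tested.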

How the results depend on the processing

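The count of 5 corrected calls stayed at 4 to 6 without any 1 replicate, without centring, without the control block, with either set of dye pairs, with other filters on missing values, and with a dye effect scaled to each array, an alternative chosen after seeing the data, which called the same 5. It was 4 to 5 without 1 replicate. It fell to 1 when only genes with a symbol were tested, to 0 without both arrays of control extract 3 (1137 features at an unadjusted p under 0.05) or of control extract 4 (344), which leaves 2 arrays, and to 0 with all 20 arrays in 1 fit (542), and was 10 without weights. With the dye effect taken as exact it was 5, of which 2 were shared, and dsx passed (limma adjusted p = 0.0322) while ocn did not (limma adjusted p = 0.0643). Features at an unadjusted p under 0.05 numbered 1460 without replicate 2, against 727. Apart from the by-channel reading, ocn had a limma adjusted p of 0.000406 to 0.154. The 109 calls as deposited became 11 with symbols only, 7 to 52 without 1 replicate (7 without replicate 5, 15 without replicate 4, 42 without replicate 2, 52 without replicate 1), 0 without control extract 3 or 4, 204 without the control block, 1090 without weights and 168 in features measured everywhere. The dye effect passed in 1049 features with PyPn pairs alone, against 3127. Teh1 ran from -0.47 to 0.19 without 1 replicate, turned to 0.19 without replicate 2 and to 0.27 without control extract 3.

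Read by channel, 2 features passed, and 25 of 25 named genes turned sign: ocn -0.66, Vps51 -0.52, Pk34A -0.27, cher -0.51, l(1)G0469 -0.36, CG8321 -0.53, HnRNP-K -0.48, dsx -1.30 (limma adjusted p = 0.000173), Cyp12d1-p -0.17, Torsin -0.19, ens -0.61, CG10752 -0.18, fog 0.49, Ktl 0.33, beta-PheRS 0.12, Gpdh3 0.37, orb2 0.58, GCS2alpha 0.53, Bsg 0.27, Glys 0.19, CG12860 0.42, CG18135 0.28, CG4294 0.31, yps 0.47 and Teh1 0.30. Reading by channel reverses the deposited ratio of every pyrethrin array by construction, so these turned signs are not a separate test of the genes. For the other changes with the processing the cause was not tested. The difference from the other sprays had 0 calls in every alternative, also with the replicate block (521 at an unadjusted p under 0.05). Same-numbered arrays deviated together at -0.249 to 0.034, so the replicate numbers did not show a pairing. Sharing of control extracts between sprays was not modelled in the difference. Intensities were not used here, so signal over background is unknown.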
